A study of Mus musculus with 4 samples.

Results

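Interferon-stimulated genes are the genes that cells switch on when interferons, the cytokines of antiviral defence, bind their receptors. They were followed here in heart RNA of mice that had received a viral vector carrying Tbx6, a T-box transcription factor of the embryonic mesoderm, or phosphate-buffered saline (PBS). The members were chosen by gene symbol from a list of 38 interferon-stimulated genes. Of these 38, 37 had a probe set with that name, each gene a single probe set, among the 19505 named genes of the array. Ifi44 was not analysed here.

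The animals were of the outbred ICR strain (Jcl:ICR), and all were injected at postnatal day 1 (P1), under the skin of the back according to the protocol, while other labels speak of introduction into the heart. Hearts were taken 7 or 30 days later. There were 4 groups with 1 Clariom S array each, namely PBS at day 7, Tbx6 at day 7, PBS at day 30 and Tbx6 at day 30. The type of virus, the promoter that drives Tbx6 and the number of hearts behind each RNA sample are not stated in the labels. The control received no virus, so the vector and the gene it carries cannot be told apart, which bears directly on genes that respond to viruses. The Tbx6 probe set was at background on all 4 arrays (3.70, 4.14, 3.57 and 3.66, in the order of the groups above) and does not check the labels.

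Values are log2 expression values as deposited, on which a difference of 1 is a doubling. Each array carries 23 background probe sets, which are meant to match no mouse transcript. A reading at or below the highest of them is called at background. That highest value was 5.80 for PBS at day 7, 5.77 for Tbx6 at day 7, 6.05 for PBS at day 30 and 5.82 for Tbx6 at day 30. The array holds no depth, and the number of arrays limits the precision. A level of 1 gene is never set against that of another, since probe sets differ in brightness. For the same reason a sum over several genes mostly follows its brightest probe sets.

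Type I interferons act through the receptor subunits Ifnar1 and Ifnar2, and interferon gamma through Ifngr1 and Ifngr2. Behind the type I receptor, STAT2 and IRF9 are parts of a complex that binds the interferon-stimulated response element in the promoters of target genes. The targets include sensors of viral nucleic acid, enzymes that degrade RNA or stop its translation, and GTPases that attack the vacuoles of intracellular parasites. In heart tissue such genes can be expressed by muscle cells, endothelial cells, fibroblasts and resident macrophages. In whole-heart RNA, fewer cells of a type and less RNA per cell cannot be told apart.

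The promoters of members that rose between the days are shown first, 5 with a match to the sequence through which interferon is known to act and 1 without. Windows run from 250 bases before to 50 bases after the start site in RefSeq (build GRCm38.p6), 5′ to 3′ in the direction of the gene. Capitals mark each match to a short form of the response element, GAAANNGAA or its reverse complement TTCNNTTTC, with overlapping matches counted separately. Ifit3b lies at chr19:34607707-34608006 on the plus strand, Ifit3 at chr19:34583279-34583578 on the plus strand, Irgm2 at chr11:58214727-58215026 on the plus strand, Gbp2 at chr3:142620413-142620712 on the plus strand and Ifih1 at chr2:62646206-62646505 on the minus strand. The window of Oasl2, at chr5:114896684-114896983 on the plus strand, is shown as a member that rose without a match.
Ifit3b: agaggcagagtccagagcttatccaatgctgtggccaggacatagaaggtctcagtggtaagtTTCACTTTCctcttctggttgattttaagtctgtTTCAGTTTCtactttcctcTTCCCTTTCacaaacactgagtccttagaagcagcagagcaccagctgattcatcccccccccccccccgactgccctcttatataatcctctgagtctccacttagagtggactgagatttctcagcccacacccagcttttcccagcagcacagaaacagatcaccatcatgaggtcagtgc
Ifit3: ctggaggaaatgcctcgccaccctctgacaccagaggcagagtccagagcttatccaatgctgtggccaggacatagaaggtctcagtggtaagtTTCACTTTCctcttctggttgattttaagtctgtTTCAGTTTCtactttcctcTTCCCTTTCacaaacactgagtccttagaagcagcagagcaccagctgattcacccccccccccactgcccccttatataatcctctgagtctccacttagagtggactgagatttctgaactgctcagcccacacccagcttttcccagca
Irgm2: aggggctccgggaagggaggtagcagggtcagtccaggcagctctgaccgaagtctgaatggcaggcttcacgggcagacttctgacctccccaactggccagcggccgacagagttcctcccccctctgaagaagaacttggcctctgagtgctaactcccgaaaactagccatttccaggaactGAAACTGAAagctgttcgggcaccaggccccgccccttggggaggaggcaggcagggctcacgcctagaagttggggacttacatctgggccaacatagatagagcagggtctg
Gbp2: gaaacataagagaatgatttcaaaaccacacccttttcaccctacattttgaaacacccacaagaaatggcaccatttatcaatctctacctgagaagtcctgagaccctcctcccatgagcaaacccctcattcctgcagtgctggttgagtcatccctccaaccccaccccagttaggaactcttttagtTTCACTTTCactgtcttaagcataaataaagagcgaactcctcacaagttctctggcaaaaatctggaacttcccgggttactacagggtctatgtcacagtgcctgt
Ifih1: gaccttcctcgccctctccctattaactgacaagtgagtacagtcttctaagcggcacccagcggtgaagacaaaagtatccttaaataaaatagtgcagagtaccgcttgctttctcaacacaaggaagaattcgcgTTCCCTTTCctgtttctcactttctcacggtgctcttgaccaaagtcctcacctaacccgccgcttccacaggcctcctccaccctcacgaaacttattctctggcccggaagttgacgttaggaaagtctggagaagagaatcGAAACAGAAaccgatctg
Oasl2: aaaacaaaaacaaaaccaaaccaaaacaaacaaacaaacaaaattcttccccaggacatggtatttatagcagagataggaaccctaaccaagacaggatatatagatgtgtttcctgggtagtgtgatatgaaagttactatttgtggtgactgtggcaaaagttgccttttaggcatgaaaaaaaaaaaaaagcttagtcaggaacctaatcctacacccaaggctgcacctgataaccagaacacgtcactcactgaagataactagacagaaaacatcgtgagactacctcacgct

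Ifit3 and its neighbour Ifit3b each held 3 matches at the same spacing. With the windows shifted by 32 bases and no gaps allowed, 201 of 268 bases (75.0%) were identical. The windows fell out of register at the run of C, which differs in length between them. The share therefore understates how alike the windows are. Of the 27 members with a window in the table, 19 held a match, a share of 70.4%, whereas 9.28% of the 15691 array genes with a window did. Counted by window, 20 of 31 member windows matched, against 8.56% of all 32851 windows. The matches were of the same kind in members that rose with day (6 of 9 with a window) and in tested members that did not pass the test (6 of 9). They were also present in 7 of the 9 members that were not tested, among them Isg15 with 3 matches, although its readings were at background on every array. A match describes the letters and not a binding event. Of the 36 matches in member windows, 29 were centred within 150 bases before the start site.

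**Figure D1:**
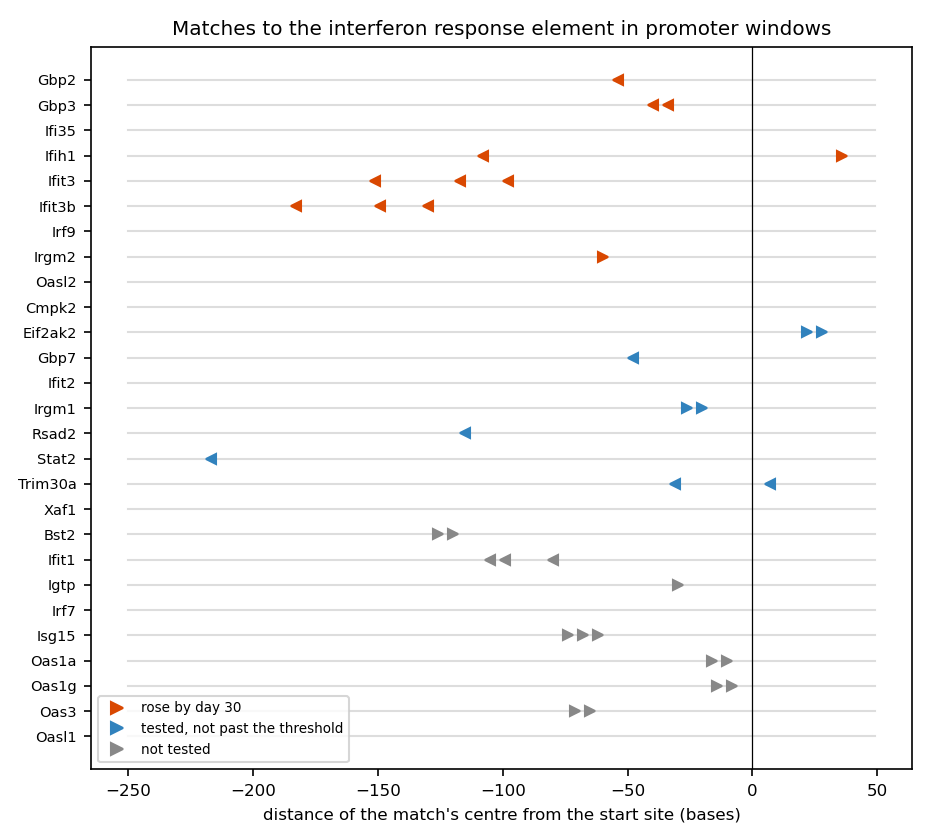
Position of each match to the short response element in the promoter windows of 27 members, as the distance in bases of its centre from the start site; right-pointing markers lie on the strand of the gene and left-pointing markers on the other strand. Colours separate members that rose by day 30, tested members that did not pass and members that were not tested; 29 of the 36 matches lie within 150 bases before the start, in all 3 classes. Where a gene has 2 windows, the matches of both are drawn on the same line.

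Of the 37 members 11 were above background on all 4 arrays, 12 on some and 14 on none. Over all 19505 genes 7884 were above background on all 4 arrays, 1710 on some and 9911 on none. The 14 were Irf7, Dhx58, Zbp1, Oas1a, Oas1g, Oas2, Oas3, Oasl1, Ifit1, Isg15, Usp18, Mx1, Bst2 and Trim30a, with readings between 2.19 and 5.86. They include the classical type I interferon targets Isg15, a ubiquitin-like protein, Usp18, the protease that removes it, and Irf7, the factor that amplifies interferon production. For these genes no size of difference between the arrays can be given, although Mx1 and Trim30a were bright enough to enter the tests. Above background on every array were Irf9, Stat2, Ifih1, Eif2ak2, Rsad2, Ifi35, Xaf1, Parp14, Gbp7, Irgm1 and Iigp1. The number of members above background was 15 for PBS at day 7, 14 for Tbx6 at day 7, 20 for PBS at day 30 and 22 for Tbx6 at day 30.

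**Figure D2:**
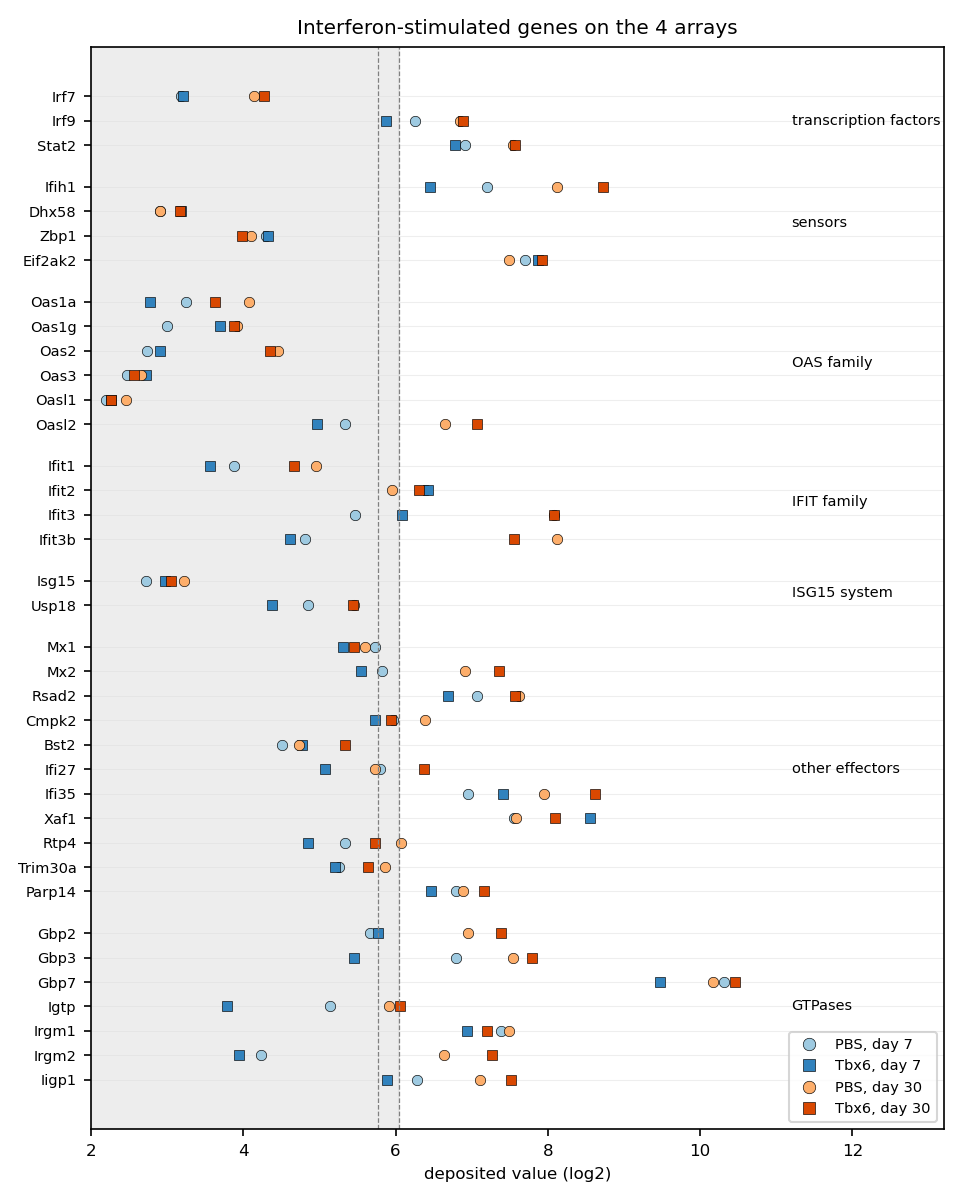
Deposited log2 values of the 37 members on the 4 arrays, grouped by role; circles are PBS, squares Tbx6, blue day 7 and orange day 30, 1 array each. The grey area ends at the highest background value of any array (6.05) and the dashed lines mark the lowest and highest of these limits (5.77 and 6.05). For Ifit3, Ifit3b, Irgm2 and Oasl2 both orange points lie to the right of both blue points.

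The comparison of day 30 with day 7 asked how these genes changed as the heart matured, with the PBS and Tbx6 hearts as the pair of observations of each day. Members that passed the test all rose. They were the RNA-binding proteins Ifit3 and Ifit3b, the GTPases Irgm2, Gbp2, Gbp3 and Iigp1, the oligoadenylate synthetase Oasl2, the RNA sensor Ifih1, the GTPase Mx2, Ifi35, Rtp4 and the transcription factor Irf9. In an additive limma model with day and injection as terms, 12 of the 24 members that entered the test rose and 0 fell at an adjusted p under 0.05. Over all 9753 genes tested, 14.2% rose and 12.1% fell. The median difference was 0.76 over the 24 tested members and -0.02 over all tested genes. Only the brighter genes entered the test, those with a mean of all readings no lower than that of the median gene (5.30). A member could thus enter it through the day on which it was high. Among the members that rose, Ifit3b, Irgm2, Oasl2 and Rtp4 did, with day 7 means of 4.71, 4.09, 5.15 and 5.09. The count of 12 is therefore given as a description. Of the 11 members above background on every array 4 rose, namely Ifih1, Ifi35, Iigp1 and Irf9. The model leaves 1 residual degree of freedom, and its standard errors (SE) rest mostly on the spread of other genes.

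In the IFIT family, whose proteins bind viral RNA, Ifit3b was at background at day 7, with 4.81 in the PBS heart and 4.61 in the Tbx6 heart, and read 8.12 and 7.56 at day 30. It rose by at least 2.05 on the log2 scale after readings at background were raised to the background limit. The limma adjusted p of 0.000113 is that of the deposited values. The same holds below for the p beside every other rise given as at least a size. At day 7 Ifit3 was at background in the PBS heart (5.47) and above it in the Tbx6 heart (6.09), and it read 8.08 on both arrays of day 30. Its rise was at least 2.14 (limma adjusted p of 0.000585). In both genes the days did not overlap. The copies are alike in sequence, and how far their probe sets can tell them apart is not known here. Ifit2, which lies next to Ifit3, read 6.39 and 6.42 at day 7 and 5.95 (at background) and 6.30 at day 30. Its difference of -0.28 (SE 0.25, limma adjusted p of 0.439) did not pass, and its 95% interval of -0.85 to 0.29 lies below that of Ifit3 (1.70 to 2.91). Ifit1, of the same cluster, was at background throughout.

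Among the interferon-inducible GTPases, known for control of intracellular parasites, 4 of the 6 tested members rose and 0 fell. Over all tested genes 14.2% rose and 12.1% fell. Irgm2, like Ifit3b, Oasl2 and Rtp4 of other families, entered the test through its day 30 readings. Irgm2 was at background at day 7 (4.24 and 3.94) and read 6.64 and 7.27 at day 30, a rise of at least 1.17 (limma adjusted p of 0.000332). Gbp2 read 5.66 and 5.77 at day 7, on either side of the background limit, and 6.95 and 7.39 at day 30. Gbp2 rose by at least 1.38 (limma adjusted p of 0.00410). At day 7 Gbp3 read 6.79 in the PBS heart and 5.46, at background, in the Tbx6 heart, and at day 30 it read 7.54 and 7.80. It rose by at least 1.38 (limma adjusted p of 0.0165), with a difference of 0.74 between the PBS arrays and of at least 2.03 between the Tbx6 arrays. Without Tbx6 at day 7 the difference of Gbp3 was 0.87 and no longer passed (limma adjusted p of 0.0635). It also did not pass without PBS at day 30 (limma adjusted p of 0.0786) or without Tbx6 at day 30 (limma adjusted p of 0.124).

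Gbp7, the neighbour of Gbp3, was well above background at 10.31, 9.48, 10.16 and 10.45, and the days overlapped (0.41, SE 0.31, limma adjusted p of 0.355). Iigp1, an effector GTPase of parasite vacuoles, read 6.28 and 5.88 at day 7 and 7.11 and 7.51 at day 30, and rose by 1.23 (SE 0.28, limma adjusted p of 0.0137). Irgm1, a regulator of that effector and of autophagy, read 7.38, 6.94, 7.49 and 7.21, with overlapping days (0.19, SE 0.24). Igtp, the direct neighbour of Irgm2, was above background only for Tbx6 at day 30 (6.06) and did not enter the test.

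Among the sensors, Ifih1, which recognises long viral RNA, read 7.20 (PBS) and 6.45 (Tbx6) at day 7, and 8.12 and 8.72 at day 30. Ifih1 rose by 1.60 (SE 0.34, limma adjusted p of 0.0100), a 3.03-fold difference, with every reading above background. The difference was 0.92 between the PBS arrays and 2.28 between the Tbx6 arrays. Eif2ak2, the kinase that halts translation on viral RNA, read 7.70, 7.86, 7.48 and 7.92 and its days overlapped (-0.08, SE 0.25). Its 95% interval was -0.64 to 0.48. Dhx58 and Zbp1 were at background.

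Of the oligoadenylate synthetase family, whose products activate an RNA-degrading enzyme, only Oasl2 left background. It read 5.33 and 4.97 at day 7 and 6.64 and 7.08 at day 30, a rise of at least 1.08 (limma adjusted p of 0.00322). Oas1a, Oas1g, Oas2, Oas3 and Oasl1 were at background on every array, including Oasl1 beside Oasl2 on the chromosome. Of the transcription factors, Irf9 read 6.25 and 5.87 at day 7 and 6.84 and 6.88 at day 30 and rose by 0.80 (SE 0.25, limma adjusted p of 0.0479). The call on Irf9 was close to the threshold and was lost under 3 of 8 alternatives, with adjusted p from 0.0151 to 0.0872. Stat2 read 6.91 and 6.78 at day 7 and 7.54 and 7.56 at day 30. Its difference of 0.70 (SE 0.24, limma adjusted p of 0.0646) did not pass, though the days did not overlap.

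Of the other effectors, Mx2, an antiviral GTPase, read 5.82 and 5.55 at day 7, the latter at background, and 6.92 and 7.35 at day 30, and rose by at least 1.34 (limma adjusted p of 0.00596). Mx1, of the same family, was at background. Ifi35, a partner of the interferon-induced protein Nmi, read 6.95 and 7.40 at day 7 and 7.95 and 8.62 at day 30 and rose by 1.11 (SE 0.24, limma adjusted p of 0.0122). Rtp4, which escorts receptors to the cell surface, passed on the deposited values (0.81, limma adjusted p of 0.0396) with a single reading above background, 6.07 for PBS at day 30. With readings at background raised to the limit it no longer passed, with a limma adjusted p of 0.683. Readings at background on both days leave Rtp4 without a measured size, and its call rests on them.

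Rsad2 (viperin), which makes an RNA chain terminator, and the nucleotide kinase gene Cmpk2 are neighbours on the chromosome. Rsad2 read 7.07, 6.68, 7.62 and 7.57, and its difference of 0.72 (SE 0.25, limma adjusted p of 0.0654) did not pass. Cmpk2 read 5.96, 5.73 (at background), 6.38 and 5.93, with overlapping days (0.32, limma adjusted p of 0.375). Parp14, an ADP-ribosyltransferase, read 6.79, 6.46, 6.88 and 7.16 (0.40, limma adjusted p of 0.300). Ifi27 was above background only for Tbx6 at day 30 (6.37). Xaf1, an antagonist of an apoptosis inhibitor, was among the few members that were not higher at day 30, with 7.55, 8.56, 7.58 and 8.09 (-0.22, SE 0.26, limma adjusted p of 0.561).

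**Figure D3:**
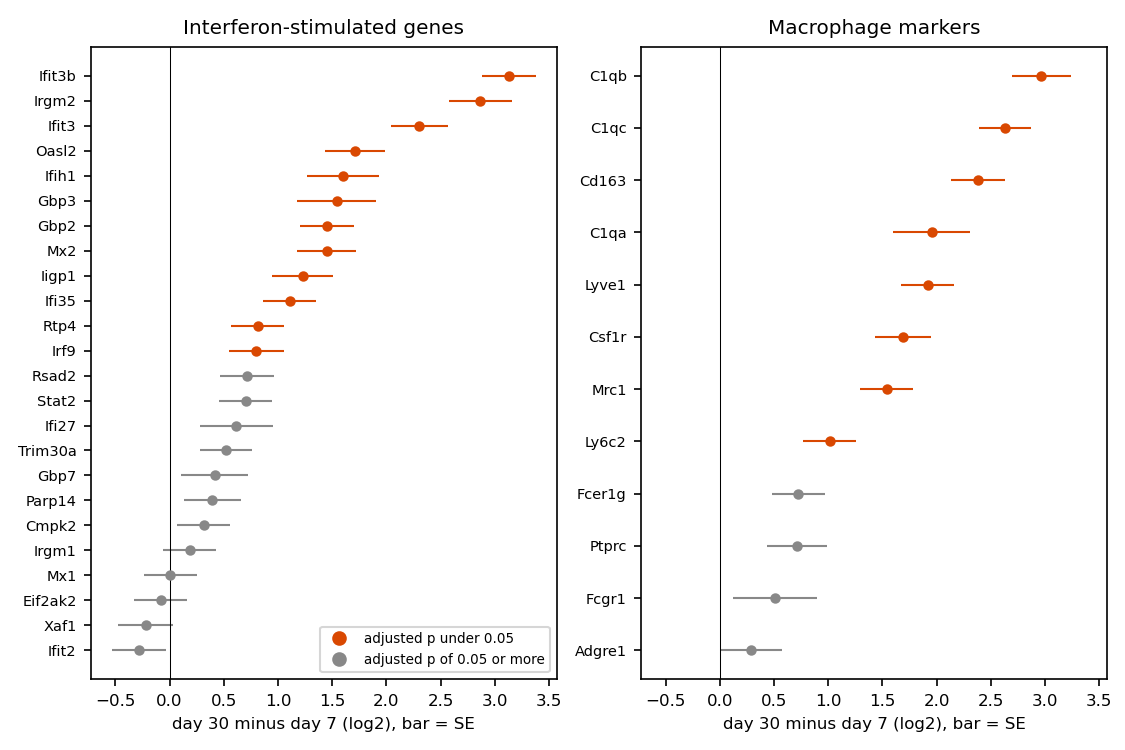
Difference between day 30 and day 7 (log2, point) with its SE (bar) from the limma model on the deposited values, for the 24 tested members (left) and 12 tested macrophage markers (right), 4 arrays; orange marks an adjusted p under 0.05. The 12 members that rose range from 0.80 (Irf9) to 3.13 (Ifit3b), where readings at background enter as deposited, and 8 of the 12 macrophage markers are orange.

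Without a model, each day difference can be read between the arrays of a single injection, and these arrays are not shared between the injections. After PBS, 12 of the 21 members with a reading above background were at least 1.5-fold higher at day 30 and 0 were lower, against 21.4% and 20.1% of all such genes. After Tbx6, 16 of 22 were higher and 0 lower, against 22.2% and 20%. All 12 of the former were among the latter. After PBS, Ifit3b differed by at least 2.32 and Ifit3 by at least 2.29, and after Tbx6 Ifih1 differed by 2.28 and Gbp3 by at least 2.03. Of the 11 members above background on all 4 arrays, 8 had the same sign after both injections, a share of 72.7% against 76.5% of all 7884 such genes. In 16 of the 23 members with a reading above background both day 30 readings were above both day 7 readings, and in 1, Ifit2, the reverse held. Among all such genes the shares were 32.8% and 34.3%. This order takes readings at background as deposited, that of Ifit2 for PBS at day 30 among them. A member could enter this and the counts above through the day on which it was high, as Igtp and Rtp4 did with a single reading. The counts are therefore given as a description.

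**Figure D4:**
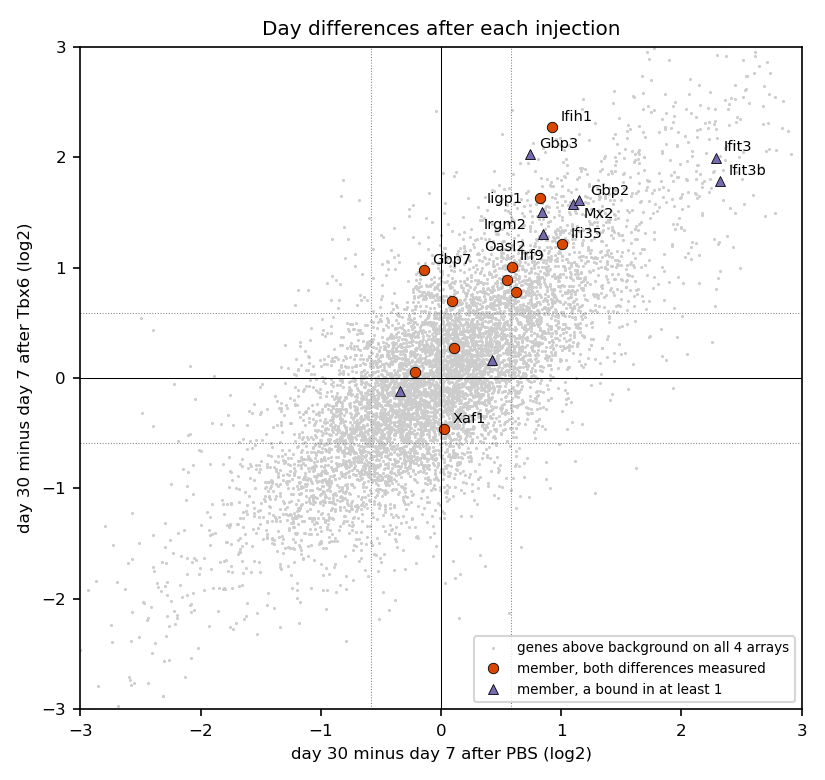
Day 30 minus day 7 after PBS (horizontal, log2) against the same after Tbx6 (vertical, log2), each from 1 array against 1; circles are members above background on all 4 arrays, triangles members with a bound in at least 1 difference, and grey dots all genes above background on all 4 arrays. Dotted lines mark 1.5-fold, and 12 members lie beyond it in the upper right on both axes, none in the lower left. Axes end at 3 on the log2 scale, and grey dots beyond them are not drawn. Ifi27, Igtp and Rtp4, at background on both days after 1 of the injections, are not drawn either.

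Other genes of the pathway were read against the same shares of all tested genes, of which 14.2% rose and 12.1% fell with day. Of 6 interferon receptor genes all were tested, 2 rose and 1 fell with day. Ifngr1, the ligand-binding chain of the interferon gamma receptor, read 8.59 and 8.39 at day 7 and 10.10 and 10.17 at day 30 and rose by 1.64 (SE 0.25, limma adjusted p of 0.00213). Il10rb, which also serves the interferon lambda receptor, rose by 1.06 (SE 0.24, limma adjusted p of 0.0141). Ifnar1, of the type I receptor, read 9.87 and 9.20 at day 7 and 8.21 and 8.46 at day 30 and fell by 1.20 (SE 0.29, limma adjusted p of 0.0175). Its partner Ifnar2 read 11.26, 11.35, 11.29 and 11.23. The fall of Ifnar1 no longer passed without PBS at day 7, without PBS at day 30 or without Tbx6 at day 30.

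Of 14 interferon ligand genes 13 were at background on every array, and the exception, Ifna5, of a family of closely similar genes, read 6.67, 6.98, 6.46 and 6.94 with no day change past the test. Of 11 tested genes of signalling and the IRF family, with Jak1, Tyk2 and Irf1 among them, 0 passed in either direction. Of 13 tested genes of nucleic acid sensing 5 rose and 0 fell. They were Ifi204 (2.08, limma adjusted p of 0.00102), the endosomal RNA receptor gene Tlr7 (1.75, limma adjusted p of 0.00140), Samhd1, which depletes nucleotides (1.28, limma adjusted p of 0.00949), the mitochondrial adaptor gene Mavs (0.95, limma adjusted p of 0.0219) and the adaptor gene Myd88 (0.86, limma adjusted p of 0.0426). A further list of 71 measured interferon-stimulated genes outside the 38 had 45 tested genes, of which 12 rose and 0 fell. The lowest p-values were those of Ifi207 (4.06), Sp100 (1.34), Samd9l (1.13), Lgals3bp (1.16), Pnpt1 (1.30) and Phf11d (1.07), with limma adjusted p from 6.82e-05 to 0.0245. Over all these lists 19 genes rose. In fits without 1 array the number was not stable, and it was lowest without Tbx6 at day 30. Shares of all genes in those fits are not given here, so the change cannot be set against that of other genes.

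Markers of macrophages rose between the same days. Of 15 measured markers 12 were tested, and 8 rose and 0 fell (14.2% and 12.1% of all tested genes), with a median of 1.61. The complement gene C1qb read 6.80 and 6.77 at day 7 and 9.40 and 10.10 at day 30, and Csf1r, the receptor for a macrophage growth factor, read 7.82 and 7.40 and then 9.27 and 9.33. The summed linear level of the 15 markers was 2361 and 2784 at day 7 and 6915 and 8445 at day 30. That of the 37 members was 3482 and 2840 and then 4804 and 5660. These sums do not describe the lists evenly. The brightest probe set was that of Mrc1 among the markers (10.05, 10.49, 11.72 and 11.90) and of Gbp7, whose days overlapped, among the members. They also hold 3 markers and 14 members at background on every array. The pan-leukocyte gene Ptprc (6.64, 6.23, 6.94 and 7.35) and the macrophage gene Adgre1 (7.15, 6.85, 7.01 and 7.58) did not pass. Fibroblast markers went the other way, with 7 of 8 falling, and of 11 endothelial markers 1 rose and 2 fell. All 4 measured B cell, 6 conventional dendritic cell and 5 thymocyte markers were at background on every array. So were 9 of 10 T and NK cell markers and 6 of 8 markers of plasmacytoid dendritic cells, a main source of type I interferon, with Siglech among the 6. Of 12 cardiomyocyte markers 0 rose and 2 fell, namely Tnni1, the fetal troponin I (11.65 and 11.80 at day 7, at background at day 30), and Myh7 (16.27, 15.52, 14.78 and 14.95). The other 10, with Myh6 and Tnnt2 among them, were above background on every array. Of these, Actc1, Atp2a2 and Pln read the same on all 4 arrays (19.70, 19.93 and 19.83). The highest value on every array was 19.93, and Myh6, Tnnt2 and Myl2 also read close to it. For such probe sets a rise could not be read, so the count of 0 says little about them. The part of macrophages in the rise of the members was not tested.

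The comparison of Tbx6 with PBS asked whether the vector carrying Tbx6 altered these genes, and it was made on each day between single arrays. At day 7 the GTPase genes Gbp3 and Gbp7 and the sensor gene Ifih1 were lower after Tbx6 and Xaf1 was higher. Of 17 members with a reading above background, 3 were at least 1.5-fold lower and 1 was higher, against 7.78% and 6.51% of all such genes. Gbp3 was lower by at least 1.02 on the log2 scale (6.79 after PBS and at background after Tbx6), Gbp7 differed by -0.83 (10.31 and 9.48) and Ifih1 by -0.75 (7.20 and 6.45). Xaf1 was 2.01-fold higher (7.55 and 8.56). Among the 12 members above background on both arrays the median was -0.35, with 4 of 12 above 0, and over all such genes the median was -0.03. In 20 of the 37 members both readings were at background.

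At day 30, 3 of 23 members with a reading above background were at least 1.5-fold higher after Tbx6 and 0 were lower, against 5.98% and 5.27% of all such genes. The members were Ifi35 (0.67, from 7.95 to 8.62), Irgm2 (0.64, from 6.64 to 7.27) and Ifih1 (0.60, from 8.12 to 8.72). Ifit3b differed by -0.56 (8.12 and 7.56) and Ifit3 by 0.00. Among the 19 members above background on both arrays the median was 0.29, with 15 of 19 above 0, and over all such genes it was 0.00. Of 6 adipocyte markers with a reading above background, 5 were at least 1.5-fold higher after Tbx6 at day 30, and of 12 macrophage markers 2 were. Their part in the differences of the members was not tested. No member passed 1.5-fold in the same direction on both days, and Ifih1 passed it in opposite directions. Of the 11 members above background on all arrays 5 kept their sign, a share of 45.5% against 49.3% of all such genes.

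**Figure D5:**
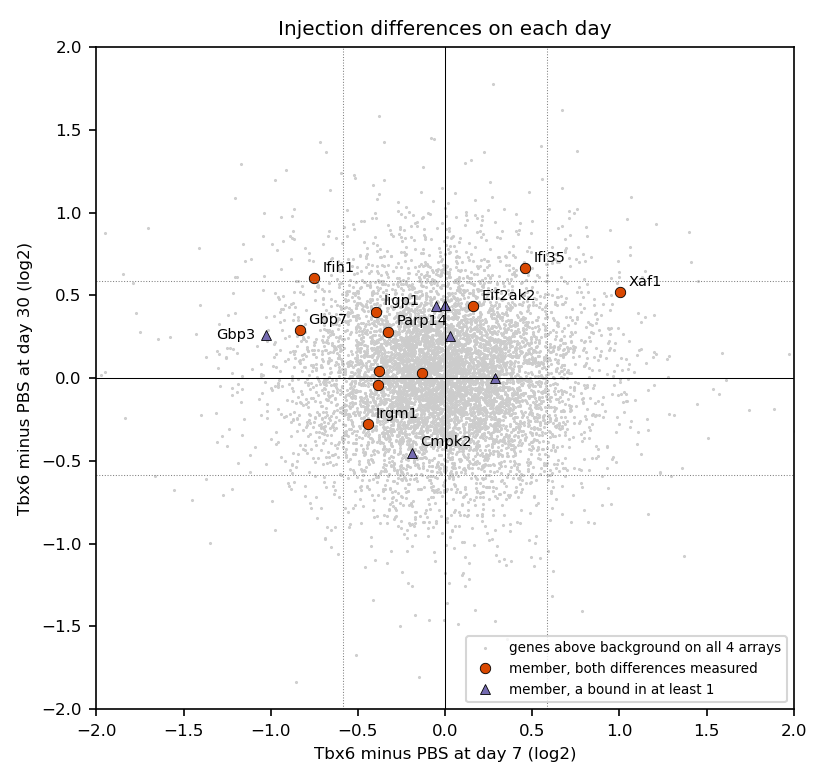
Tbx6 minus PBS at day 7 (horizontal, log2) against the same at day 30 (vertical, log2), each from 1 array against 1, with markers as in the plot of day differences. Dotted lines mark 1.5-fold; Gbp3, Gbp7 and Ifih1 lie beyond it on the left, Xaf1 on the right, and Ifih1 and Ifi35 at the top. Axes end at 2 on the log2 scale, and grey dots beyond them are not drawn. Members at background on both arrays of a day are not drawn either, among them Irgm2, Ifit3b and Oasl2.

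With both days in the additive limma model, 0 of the 24 tested members passed for injection, and 0 of all 9753 genes did (0%). At an unadjusted p under 0.05 there were 2 members, Xaf1 (0.76, 95% interval 0.18 to 1.35, unadjusted p of 0.0166 by limma) and Ifi35 (0.56, 0.00 to 1.12, unadjusted p of 0.0488 by limma), beside 421 of all genes. Both had a limma adjusted p of 1. For Iigp1 the estimate was 0.00 with a 95% interval of -0.63 to 0.64, which shows the size of difference that such arrays leave undetermined. That estimate averages a difference of -0.40 at day 7 and of 0.40 at day 30. The median over the 24 was -0.04.

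The further list of interferon-stimulated genes also differed at day 7. Of 44 with a reading above background 14 were at least 1.5-fold lower after Tbx6 and 1 was higher, against 7.78% and 6.51% of all such genes. They included B2m, the light chain of histocompatibility class I (17.45 after PBS and 15.60 after Tbx6), the surface protein gene Ly6e (16.57 and 15.28), Pnpt1 (9.02 and 7.97), Helz2 (7.52 and 6.48) and Sp100 (11.05 and 10.05). At day 30 these 5 genes differed by 0.63, 0.14, 0.24, -0.02 and -0.07, and 3 of 46 in the list were higher and 0 lower, against 5.98% and 5.27% of all such genes. These genes were picked for their day 7 difference after the values had been seen. None of the 45 tested genes of this list passed limma for injection (0 also at an unadjusted p under 0.05).

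Other transcripts set the array of PBS at day 7 apart. The airway gene Scgb1a1 read 12.89 there and was at background on the other 3 arrays. Ucp1, of brown fat, read 11.92, 7.60, 5.69 (at background) and 8.34, highest on the same array. Of 8 lung epithelial markers 4 were above background on that array, namely Scgb1a1, Scgb3a1 (10.80), Scgb3a2 (9.65) and Cyp2f2 (8.17). On the others only Cyp2f2 for Tbx6 at day 30 was (6.31). The surfactant genes Sftpc, Sftpb, Sftpa1 and Sftpd were at background on every array. The adipocyte markers Adipoq (7.98, 6.08, 7.49 and 9.83), Cidec (7.10, 6.13, 5.85, at background, and 7.88) and Pparg (6.69, 6.70, 7.66 and 8.51) were highest for Tbx6 at day 30. Cidea differed from these, with 8.45, 8.98, 7.88 and 8.50, highest for Tbx6 at day 7. Plin1 and Lep were at background on every array. Of 8 neutrophil markers 2 were above background, on the array of PBS at day 7 alone (S100a8 at 6.10 and S100a9 at 6.25). Of the 8 macrophage markers above background on both arrays of day 7, 4 were higher after Tbx6, with a median of 0.05. Fcer1g (1.06), Mrc1 (0.44) and Lyve1 (0.43) were among the higher, and Csf1r (-0.43), Ptprc (-0.41) and Adgre1 (-0.30) among the lower. Of these, Fcer1g alone passed 1.5-fold. The part of these transcripts in the day 7 differences was not tested. For the fits without 1 array that follow, shares of all genes are not given. The losses among members therefore cannot be set against those of other genes. For the comparison of days, leaving out the array of PBS at day 7 left 11 of the 12 members past the test, Ifi35 being lost. Leaving out that of Tbx6 at day 7 or of PBS at day 30 left 9 each, without Irf9, Rtp4 and Gbp3. Leaving out Tbx6 at day 30 left 6, namely Ifit3, Ifit3b, Irgm2, Gbp2, Mx2 and Oasl2, in fits with no injection term in which the lone array of a day is assumed to vary like the others.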

How the data were processed

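The deposited log2 values of the 4 mouse Clariom S arrays were made by the authors with SST-RMA in Affymetrix Expression Console 1.4, per the submitters' processing notes. The labels leave the log base open, and base 2 was inferred from how far the values reach. Of 28846 probe sets 19572 carried 1 gene symbol and 0 several, and all 19572 matched RefSeq (GRCm38.p6) by Entrez identifier. For 55 genes with several probe sets the brightest was kept. All 4 columns were used.

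Day and injection were tested over 9753 genes (mean at or above 5.30) with limma 3.58.1 in R 4.3.3 (lmFit, eBayes, two-sided, Benjamini-Hochberg, 0.05), tested on simulated data. Nothing in the labels gives batches or separate animals. With 1 array against 1 there is no replicate check, and differences were called at 1.5-fold among genes with a reading above background, readings at background being raised to the limit, so that such a difference is a bound. Tables and plots used Python 3.11.15, pandas 2.3.3 and matplotlib 3.10.9.

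Members, pathway lists and marker lists were chosen with earlier results of these data known. Every member is described. Of the pathway lists, genes past the day test are named, up to 6 a list by p, together with genes past 1.5-fold in the same direction on both days (there were none). Other names were chosen after their values were seen. Alternatives covered scaling, filter, background, probe sets, variance trend and model terms.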

Additional observations from a re-analysis of the deposited data

Results flagged for a closer look

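Ifih1, the RNA sensor, differed between injections by -0.75 on the log2 scale at day 7 and by 0.60 at day 30, past 1.5-fold in opposite directions. B2m, of the further list, differed by -1.85 at day 7 and 0.63 at day 30. Between the days B2m differed by -0.83 after PBS and by 1.65 after Tbx6. Each comes from 1 array against 1, and whether the differences are unequal was not tested. The arrays of PBS at day 7 and of Tbx6 at day 7 also differed in airway and brown fat transcripts, whose part was not tested.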

How the results depend on the processing

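Of the 12 members that rose with day, 10 passed the limma test under all 8 other settings of scaling, filter, background, probe sets and model, and Irf9 (lost in 3 of 8) and Rtp4 (lost in 4 of 7) did not. The count was 10 to 14 over these settings and 0 fell under each. With no filter 14 of 37 measured members rose, Irf7, Oas2, Ifit1 and Igtp among them with readings at or near background, which gives them no measured size. Without 1 array, a choice made after seeing the data, the count was 6 to 11. Pathway genes that rose numbered 19, with 15 to 22 under these settings and 4 to 20 without 1 array. Those that fell numbered 1, with 2 after quantile normalisation, with raised readings or with an intensity trend, 3 with no filter, and 0 to 1 without 1 array. For injection every alternative gave 0 members and 0 pathway genes by limma.

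The size rule of 2-fold left 1 member lower and 1 higher at day 7, 0 higher at day 30, and 5 (PBS) and 11 (Tbx6) higher by day. Against the median background probe set 2 were higher at day 7, and readings as deposited gave 2 as well. Quantile normalisation left 2 higher at day 30. Shares of all genes under these settings are not given here, so the counts only describe how the calls on members moved. Signs turned only without 1 array and only for members that did not pass. Over these fits Xaf1 ranged from -0.72 to 0.28, Mx1 from -0.20 to 0.21, Gbp7 from -0.0014 to 0.83, Irgm1 from -0.035 to 0.41 and Eif2ak2 from -0.30 to 0.13. The cause was not tested. No paired analysis was possible because the labels give no replicate numbers shared by groups of more than 1 array. Signal over background limits the 14 of 37 members that were at background throughout, and 1 array per group limits all.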

Other observations

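Of the 3 guanylate-binding protein genes measured in the further list, Gbp4 and Gbp9 were at least 1.5-fold lower after Tbx6 than after PBS at day 7, and Gbp8 was at background on every array. Gbp9 read 8.12 and 7.22 at day 7 and 7.61 and 7.87 at day 30, in the order PBS and Tbx6. Gbp4 read 8.75 and 8.13 and then 8.77 and 8.37. Psme2, a proteasome activator subunit induced by interferon gamma, read 10.15 and 9.44 and then 10.06 and 10.29. These are single arrays picked after their values were seen, with no test.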
